A study of Mus musculus with 3 samples.

Results

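The Schlafen genes are a family of mouse genes named after the German word for sleep, and 7 of them, Slfn1, Slfn2, Slfn3, Slfn4, Slfn5, Slfn8 and Slfn9, were described here out of 55536 annotated genes. They were found by gene symbol, a rule that uses no measured value. The 7 genes have 21 of the 141767 transcripts present in both transcript tables. Schlafen proteins share an N-terminal core that has been shown, for human SLFN11 and SLFN13, to bind and cleave transfer RNA. Short members hold little more than this core, intermediate members add a linker domain, and long members add a C-terminal region related to helicases. The family is known for restraining cell growth, for keeping T cells and monocytes quiescent, and for being induced by interferon in immune cells.

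The libraries came from bone marrow derived macrophages of strain C57BL/6J, primary cells grown from marrow, whose age and sex were not collected. The cells had been stimulated with 100 ng/ml of Lipid A, the part of bacterial lipopolysaccharide that Toll-like receptor 4 recognises, for 40 minutes. RNA of the cytosolic fraction was depleted of ribosomal RNA and sequenced as total RNA, from 1 µg of input and fragments of 250 to 400 bases. The 3 libraries, replicates 1, 2 and 3, have separate biosample records and 1 shared donor record, and whether they came from separate animals is not given, so p-values measure the spread between these libraries. All libraries belonged to 1 group. Unstimulated cells and the nuclear fraction were not analysed here, and the levels given are levels in stimulated cells rather than changes.

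The expected counts assigned to genes came to 37861150, 37136495 and 58889061 in replicates 1, 2 and 3. Nuclear-encoded coding genes took 32.8%, 36.2% and 23.5% of all TPM (a level per transcript length, relative to all transcripts of the library) in replicates 1, 2 and 3. The TPM of coding genes was therefore lowered in replicate 3, and values rescaled over these genes alone are given where this mattered. The 8 macrophage markers all reached 1 TPM, with a median of 261.9 TPM and a summed level of 9575, 8315 and 5615 TPM in replicates 1, 2 and 3. Of 8 T cell and thymocyte markers, Cd4 alone reached 1 TPM, at 23.7 ± 4.99 TPM (SD, n = 3), while Cd3e, Rag1 and Cd2 had 0 counts in every library. The summed level of the T cell list was 23.7, 28.8 and 18.8 TPM. No B cell, NK cell, dendritic cell or intestinal epithelial marker reached 1 TPM, and Cd79b was the highest of them at 0.91 TPM. Of 6 neutrophil markers, 3 reached 1 TPM, with S100a9 at 22.9 TPM, and the summed level was 44.6, 37.8 and 34.2 TPM. The part of these cells in the Schlafen levels was not tested, and in bulk libraries more cells of a type and more RNA per cell cannot be told apart.

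All 7 genes lie in 1 cluster on chromosome 11 of the mm10 genome, between positions 82951349 and 83215154 in GENCODE M21, a span of 264 kb. In the order of position, Slfn5 on the plus strand is followed by Slfn9 and Slfn8 on the minus strand, and then by Slfn2, Slfn1, Slfn4 and Slfn3 on the plus strand. Slfn2 occupies positions 83065112 to 83070678, and Slfn5 positions 82951349 to 82964840.

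**Figure D1:**
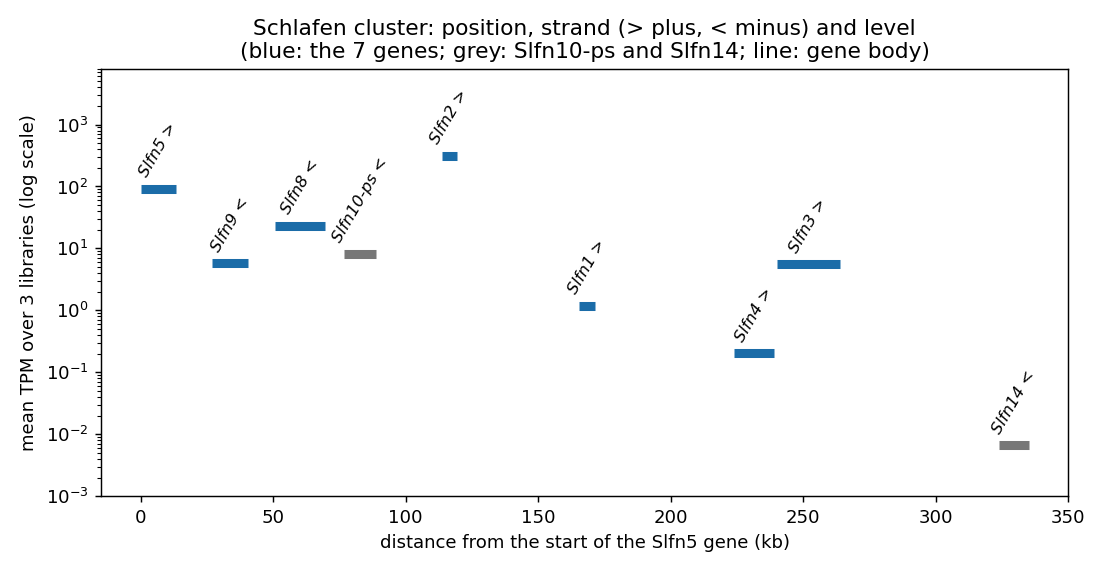
Mean TPM over 3 libraries (log scale) against the distance from the start of Slfn5 in kilobases. Each line spans a gene body, blue for the 7 Schlafen genes and grey for the pseudogene Slfn10-ps and for Slfn14, and the arrowhead after a name gives the strand. Slfn2, at 314 TPM, lies between Slfn10-ps, at 8.05 TPM, and Slfn1, at 1.18 TPM.

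The sequences just before the transcription starts are shown because the family is known for its induction by interferon and because the cluster holds near-copies. All 7 genes had an entry in the RefSeq promoter table, on build GRCm38.p6, and the 250 bases before each start were searched on both strands. The interferon-stimulated response element is the sequence bound by interferon-activated transcription factors, and was searched as GAAA and GAAA parted by 2 bases of any kind. It was present before 3 of the 7 genes, Slfn5, Slfn8 and Slfn9, and before 2.97% of 32817 promoters (974). The matches began 155 bases before the start of Slfn5, 48 before Slfn8 and 45 before Slfn9. The start used for Slfn5 lies inside the gene body that GENCODE gives for it. Capitals mark the matched bases, which read as the reverse complement in Slfn8 and Slfn9, and each window is given in the direction of its gene: chr11:82951852-82952101 on the plus strand for Slfn5, chr11:83020811-83021060 on the minus strand for Slfn8 and chr11:82991831-82992080 on the minus strand for Slfn9.
Slfn5: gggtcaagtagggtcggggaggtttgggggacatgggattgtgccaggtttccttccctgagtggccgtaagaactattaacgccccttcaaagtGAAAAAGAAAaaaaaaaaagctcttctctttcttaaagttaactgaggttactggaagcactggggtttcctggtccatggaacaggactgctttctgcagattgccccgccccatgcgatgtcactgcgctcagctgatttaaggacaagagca
Slfn8: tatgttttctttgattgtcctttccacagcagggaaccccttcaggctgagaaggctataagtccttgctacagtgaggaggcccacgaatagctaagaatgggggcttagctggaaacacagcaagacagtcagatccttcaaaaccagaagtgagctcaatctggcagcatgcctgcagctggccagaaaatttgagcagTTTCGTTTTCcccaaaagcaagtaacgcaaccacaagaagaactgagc
Slfn9: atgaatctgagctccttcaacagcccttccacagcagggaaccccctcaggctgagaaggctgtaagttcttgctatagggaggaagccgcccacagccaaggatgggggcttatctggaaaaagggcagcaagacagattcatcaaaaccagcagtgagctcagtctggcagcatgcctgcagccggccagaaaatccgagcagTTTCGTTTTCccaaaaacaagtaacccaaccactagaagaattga

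The windows of Slfn8 and Slfn9 shared a longest identical run of 20 bases, the longest of any pair. A second RefSeq start of Slfn8 placed the same match 136 bases before it. The 3 genes with the element stood at 91.6, 23.4 and 5.77 TPM, and the 4 genes without it ranged between 0.203 and 314 TPM, so the levels of genes with and without it overlapped.

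The short genes and Slfn4 had another sequence in common. The longest run common to their windows, ACTTCCTGGAG, occurred 55 bases before the start of Slfn2, 74 before Slfn1 and 73 before Slfn4, on the plus strand of each. The run was taken from the sequences themselves, so its presence before these 3 genes was fixed by the choice. It occurred before 0.0609% of all promoters (20 of 32817), these 3 included. The longest run shared by Slfn2 and Slfn3 was also of 11 bases. ACTTCCTGGAG holds within it the reverse complement of the ETS motif AGGAAGT. That motif occurred before 4 of the 7 genes (these 3 and Slfn3) and before 7.69% of all promoters. In Slfn2, Slfn1 and Slfn4 the match lies within the run, so its presence there was fixed by the same choice. The motif was also chosen after the sequences had been seen, so the comparison with all promoters is not a test. ETS factors include PU.1, a factor that macrophages need, and a part of PU.1 in the Schlafen levels was not tested. The genes with the motif included the highest and the lowest member, Slfn2 at 314 TPM and Slfn4 at 0.203 TPM. The whole window of Slfn2, chr11:83064862-83065111, and the 51 bases around the run in Slfn1, chr11:83116726-83116776, and Slfn4, chr11:83175093-83175143, are all on the plus strand, and capitals mark the run.
Slfn2: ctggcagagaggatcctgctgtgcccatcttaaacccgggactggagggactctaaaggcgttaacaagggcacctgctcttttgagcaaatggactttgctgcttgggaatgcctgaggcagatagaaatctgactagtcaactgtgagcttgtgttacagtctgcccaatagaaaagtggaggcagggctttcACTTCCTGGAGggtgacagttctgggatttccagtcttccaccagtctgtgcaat
Slfn1: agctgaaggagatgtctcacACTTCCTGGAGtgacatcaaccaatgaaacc
Slfn4: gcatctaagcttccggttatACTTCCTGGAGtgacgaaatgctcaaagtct

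The gamma-activated site TTCNNNGAA occurred before 0 of the 7 genes and before 7.02% of all promoters. The kappaB motif of NF-kappaB, known from the response to Lipid A, occurred before 2 of the 7 genes, Slfn9 and Slfn1, and before 3.90% of all promoters. These matches are letters in a window, and binding was not measured.

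The levels of the 7 genes spanned from 0.203 to 314 TPM in the mean. Slfn2 and Slfn5 held most of the family's RNA per length, Slfn8 followed, Slfn9 and Slfn3 stood at about the same level, and Slfn1 and Slfn4 were lowest. A mean of at least 1 TPM was reached by 6 of the 7 genes, against 43.1% of the 22028 protein-coding genes (9490). At 0.1 TPM, all 7 genes and 52.0% of protein-coding genes (11458) passed. The median of the 7 genes was 5.77 TPM, and that of the 11458 coding genes at or above 0.1 TPM was 6.17 TPM.

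**Figure D2:**
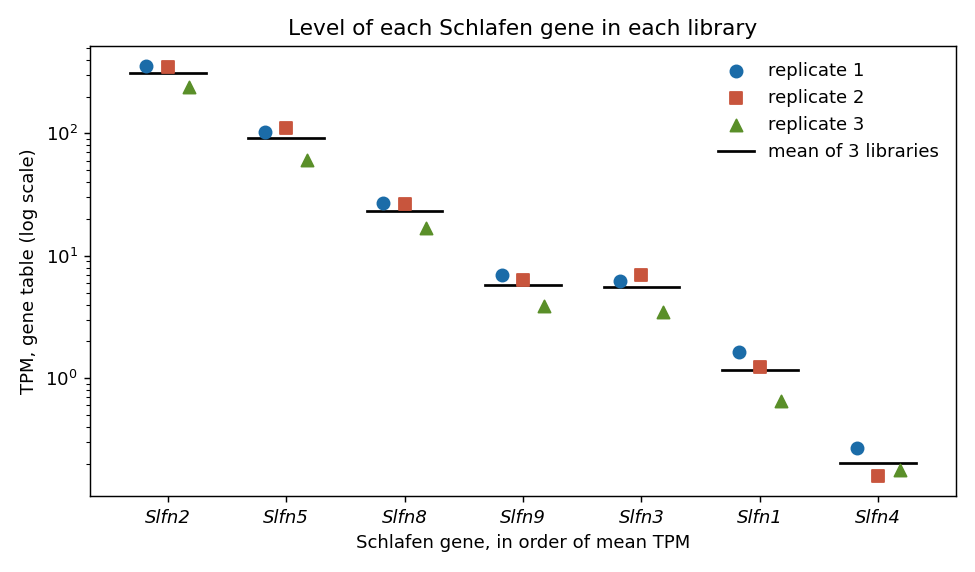
TPM of each Schlafen gene (log scale) in replicates 1, 2 and 3 (points) with the mean of 3 libraries (black line), in the order of the means. Slfn9 and Slfn3 overlap, and every other pair of neighbours is separated in all libraries.

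The short members came out at opposite ends of the range. Slfn2, whose loss in mice makes T cells and monocytes leave quiescence and die on activation, had 352.5, 349.6 and 240.2 TPM in replicates 1, 2 and 3. Replicate 3 was lowest, and all 3 values were above those of every other member. Slfn2 averaged 314 ± 64.0 TPM (SD, n = 3), higher than 99.4% of protein-coding genes (rank 129 of 22028). Slfn1, a founding member, described as a growth regulator of developing T cells, had 1.64, 1.24 and 0.65 TPM, from 147, 105 and 119 expected counts. Its mean of 1.18 ± 0.498 TPM lay above 57.8% of protein-coding genes, and replicate 3 alone was below 1 TPM. The coding sequences of Slfn1 and Slfn2, of 337 and 378 codons, were identical at 71.7% of aligned bases.

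Slfn3 and Slfn4, the intermediate members, are next to each other and alike in sequence, with 92.7% identity over 1788 aligned coding bases. Slfn3, known in the rat for a part in the differentiation of intestinal epithelium, had 6.19, 6.92 and 3.46 TPM in replicates 1, 2 and 3, with 559.6, 593.6 and 635.3 expected counts. Replicate 3 was again lowest, and the mean was 5.52 ± 1.82 TPM (SD, n = 3). Slfn4, known from myeloid cells, where interferon and Toll-like receptor ligands raise it, had 0.27, 0.16 and 0.18 TPM, from 51, 23 and 67 expected counts. All 3 values were the lowest of any member in their library. Its mean of 0.203 ± 0.0586 TPM lay above 50.2% of protein-coding genes, and the counts were above the floor of 3 counts in each library.

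The long members fell in 3 steps. Slfn5, a nuclear protein known to answer to type I interferon, had 102.6, 111.5 and 60.6 TPM, a mean of 91.6 ± 27.2 TPM (SD, n = 3) and more than 97.6% of protein-coding genes. Slfn8, whose loss has been linked to milder autoimmune inflammation of the nervous system in mice, had 26.9, 26.4 and 17.0 TPM, with a mean of 23.4 ± 5.56 TPM. Slfn9, a near-copy of Slfn8, had 7.03, 6.39 and 3.90 TPM, with a mean of 5.77 ± 1.65 TPM. In all 3 genes replicate 3 was lowest, and Slfn8 was above Slfn9 in each library. The coding sequences of Slfn8 and Slfn9, both of 910 codons, were identical at 92.7% of 2733 bases, and that of Slfn5 has 884 codons. Over all pairs of members other than Slfn3 with Slfn4 and Slfn8 with Slfn9, identity lay between 63.2% and 77.1%.

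Replicate 3, with the lowest TPM in 6 of the 7 genes, was also the library with the lowest share of coding RNA. With TPM rescaled over nuclear coding genes, Slfn2 had 1076, 966.5 and 1021 TPM in replicates 1, 2 and 3, and Slfn5 had 313, 308 and 258 TPM. On this scale Slfn2 averaged 1021 ± 54.7 TPM (SD, n = 3) and its lowest library was replicate 2, as was that of Slfn4. Replicate 3 was still lowest for the other 5 genes, among them Slfn3, with 18.9, 19.1 and 14.7 TPM, and Slfn1, with 5.01, 3.43 and 2.76 TPM. The summed level of the 7 genes was 497.1, 502.2 and 326 TPM as deposited, and 1517, 1388 and 1386 TPM after rescaling.

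Neighbours in the order of mean TPM were compared within each library on the log2(TPM + 1) scale. An exact two-sided sign-flip permutation test was used, whose smallest p with 3 libraries is 0.25. The order came from the same TPM values, so the direction of each mean difference was largely set in advance. In 5 of the 6 pairs the higher member was higher in 3 of 3 libraries and the ranges did not overlap (exact p = 0.25 each, Benjamini-Hochberg adjusted over 6 pairs 0.3), the design not allowing a smaller p. Slfn2 exceeded Slfn5 by 1.77, 1.64 and 1.97 in replicates 1, 2 and 3, a mean of 1.79 ± 0.17 (SD, n = 3) and 3.50-fold in TPM. Slfn5 exceeded Slfn8 by 1.90 ± 0.13, which was 3.86-fold, and Slfn8 exceeded Slfn9 by 1.85 ± 0.05. Slfn3 exceeded Slfn1 by 1.57 ± 0.22, and Slfn1 exceeded Slfn4 by 0.83 ± 0.30, a value that the added 1 TPM compresses: the ratio in TPM was 5.54. Slfn9 and Slfn3 differed by 0.16, -0.10 and 0.14, a mean of 0.07 ± 0.14 with overlapping ranges (exact permutation p = 0.5, adjusted p = 0.5, n = 3), so their order was not resolved.

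The order of Slfn2 and Slfn5 depended on the correction for transcript length. Slfn2 yielded 27795, 25881 and 38336 expected counts in replicates 1, 2 and 3, and Slfn5 yielded 29349, 26039 and 34874. In CPM, which scale counts to the library's total and ignore length, Slfn2 averaged 694 ± 41.6 and Slfn5 averaged 690 ± 92.0 (SD, n = 3 each). Slfn2 was lower than Slfn5 in replicates 1 and 2 and higher in replicate 3, and the log2(CPM + 1) difference was 0.02 ± 0.11 (exact permutation p = 1, n = 3). Slfn9 and Slfn3 were parted on that scale, at 44.3 ± 7.13 and 13.9 ± 2.72 CPM, a log2(CPM + 1) difference of 1.61 ± 0.08. Slfn2 made up 71.4 ± 2.08% of the summed TPM of the 7 genes and 44.5 ± 1.86% of their summed counts. For Slfn5 the shares were 20.5 ± 1.81% of TPM and 44.0 ± 1.52% of counts, and for Slfn8 they were 5.29 ± 0.101% and 7.46 ± 0.0543%. The other 4 genes each held under 1.5% of TPM.

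**Figure D3:**
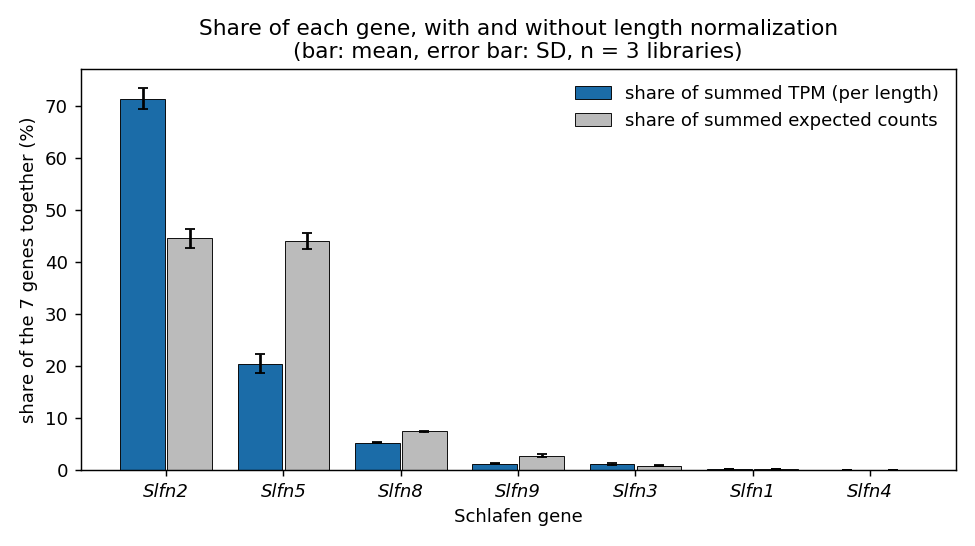
Share of each Schlafen gene in the summed TPM (blue) and in the summed expected counts (grey) of the 7 genes, in percent, as mean and SD over 3 libraries. Slfn2 takes 71.4% of TPM and 44.5% of counts, and Slfn5 takes 20.5% and 44.0%.

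A second quantification, listed in the deposited notes as made from the read files (both other tables are listed as made from aligned reads), gave lower mean TPM for 6 of the 7 genes, Slfn4 being the exception. Slfn2 averaged 133 ± 54.9 TPM there, Slfn5 43.0 ± 20.8 TPM and Slfn8 10.1 ± 4.33 TPM (SD, n = 3). Slfn9 averaged 2.94 ± 1.30 TPM and Slfn3 2.72 ± 1.39 TPM, again within each other's spread. Slfn1, at 0.524 ± 0.286 TPM, was below 1 TPM there. Slfn4 averaged 0.212 ± 0.107 TPM in the second quantification, beside 0.203 TPM in the gene table. The lower values were not particular to Schlafen genes. Lyz2, Cd68 and Cd14 averaged 2433, 355 and 153 TPM there, beside 5974, 850 and 370 TPM in the gene table. As a share of the family, Slfn2 took 69.7 ± 1.99%, Slfn5 21.8 ± 1.90% and Slfn8 5.26 ± 0.141%.

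Near-identical copies can limit how firmly reads are given to 1 gene. Of the 31-base words in its transcripts, Slfn3 shared 30.9% with some other gene, Slfn8 27.3%, Slfn9 24.6% and Slfn4 20.9%. Slfn8 shared 19.1% with Slfn9 and 18.7% with Slfn10-ps, and Slfn9 shared 14.3% with Slfn10-ps and 13.3% with Slfn8. Slfn3 shared 15.1% with Slfn4 and 10.8% with another gene, Gm11427. Slfn4 shared 12.9% with Slfn3 and 8.72% with Gm11427, whose level is not given here. Slfn5 shared 13.4%, of which 7.99% with the antisense gene Slfn5os, Slfn2 shared 10.8% and Slfn1 1.96%. The deposited posterior SD of the count is an estimate of how uncertain the sharing of reads was. It reached at most 4.03 counts, in Slfn5 in replicate 1, and was 0 in every library for Slfn1, Slfn2 and Slfn4. For the near-copies Slfn8 and Slfn9 it lay between 1.41 and 2.97, on 1768 to 6090 expected counts. That SD covers the sharing of reads alone and not the spread between libraries.

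Relatives outside the 7 genes were measured in the same way. Slfn10-ps, a transcribed pseudogene between Slfn8 and Slfn2, had 7.74, 9.69 and 6.71 TPM, a mean of 8.05 ± 1.51 TPM (SD, n = 3). It lay above Slfn9 in TPM in each library. In expected counts, which ignore length, it was below Slfn9 in replicates 1 and 2 and above it in replicate 3. The counts were 1440, 1700 and 2530 for Slfn10-ps and 1861, 1768 and 2126 for Slfn9 in replicates 1, 2 and 3. The pseudogene shared 32.4% of its 31-base words with other genes. Slfn14, a ribosome-associated endonuclease known from platelets and red cell precursors, had 0, 0 and 6 counts. The 0 counts allow up to 0.0157 TPM in replicate 1 and 0.0167 TPM in replicate 2, and limits of this kind cover counting error only. Slfnl1, a distant relative on chromosome 4, had 0, 0 and 1 counts. Within the cluster, Gm11425, a processed pseudogene with 98.3% of its 31-base words in other genes, Rpl12 among them, had 8.31, 8.82 and 7.12 TPM. The antisense gene Gm20234, which overlaps the body of Slfn2 but none of its exons, had 22.0, 9 and 84 counts, against 25881 to 38336 for Slfn2. Slfn5os, antisense to Slfn5 and overlapping 8.84% of its exonic bases, had 7.96, 0 and 3.88 counts, and since strand use in the counting is not given in the sources used here, reads of the shared bases cannot be told apart.

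Slfn1 and Slfn2 have 1 annotated transcript each, and the other members divided their RNA among several. In Slfn5, 2 transcripts have the full 884 codons. The longer of them, Slfn5-201, held 88.8%, 73.7% and 87.9% of the gene's TPM in replicates 1, 2 and 3, a mean of 83.4 ± 8.44% (SD, n = 3). Slfn5-203, of 378 codons with no stop codon annotated, held 11.0%, 26.1% and 12.0%. Replicate 2 stood apart in both, and in the second transcript table the means were 70.3 ± 8.22% for Slfn5-201 and 22.6 ± 8.52% for Slfn5-203. Slfn5-202, the other transcript with 884 codons, held 0.187 ± 0.0433% in the first table (SD, n = 3) and 9.04%, 7.01% and 4.94% in the second. In Slfn8, the 2 transcripts with the full 910 codons together held 57.0 ± 4.58% of TPM and the 2 with 407 codons held 38.4 ± 5.57%. The second table gave 62.4 ± 3.98% and 21.4 ± 5.76% for these classes, and it put Slfn8-206, one of the 407-codon transcripts, at 0 in place of 13.5 ± 5.70%. Slfn8-204, of 641 codons with no stop codon annotated, held 4.57 ± 1.82% in the first table and 16.2 ± 1.94% in the second. The 910-codon and 407-codon classes are therefore in the same order in both tables. The sizes of the 407-codon and 641-codon classes are not settled.

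Slfn9-201 held 85.8 ± 7.76% of the TPM of Slfn9 in the first table and 83.1 ± 6.17% in the second (SD, n = 3 each). In Slfn3, Slfn3-201, of 517 codons, held 62.8%, 50.7% and 60.1% and Slfn3-202, of 640 codons, held a mean of 41.8 ± 6.65%. The second table gave 71.3 ± 3.36% for Slfn3-201 and 27.1 ± 3.30% for Slfn3-202. For Slfn4, with 23 to 67 counts in a library, Slfn4-202 held 63.0%, 66.7% and 0%, and Slfn4-201 held 29.6%, 0% and 83.3%. No main transcript of Slfn4 could be named from these values.

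**Figure D4:**
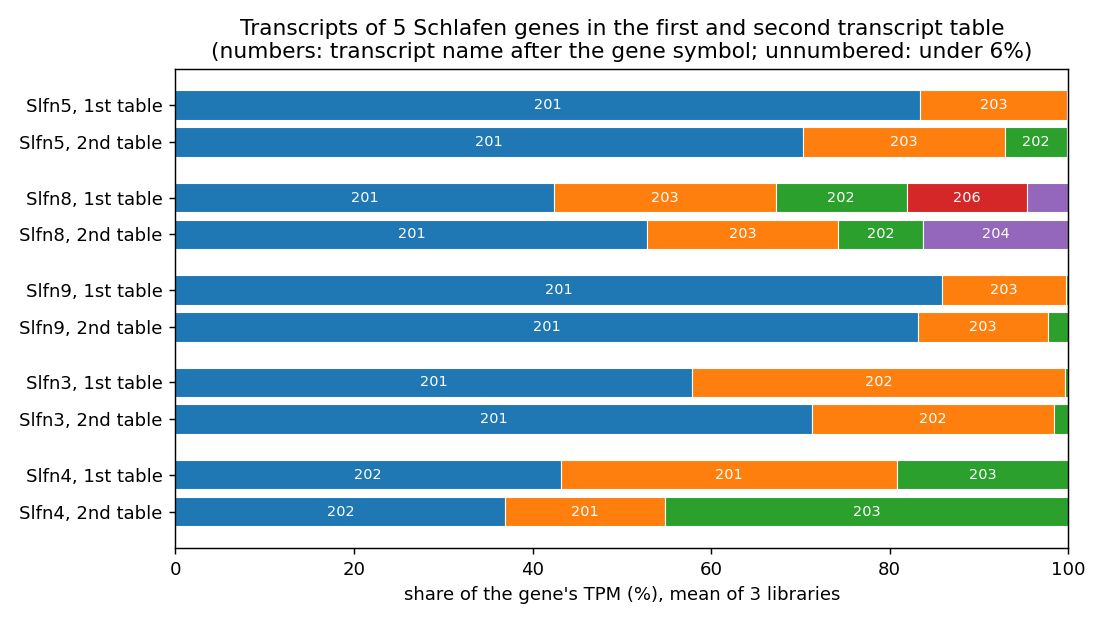
Share of each gene's TPM (percent, mean of 3 libraries) in its transcripts, for the first transcript table (upper bar of each pair) and the second (lower bar), with numbers giving the transcript name after the gene symbol. Slfn5-201 and Slfn9-201 take over 70% in both tables, while Slfn4 has no transcript that leads in all libraries.

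The spread of each gene between the 3 libraries was tested against the dispersion trend of all genes with edgeR's goodness-of-fit test and Benjamini-Hochberg adjustment. Of 12250 genes tested, 209 (1.71%) varied beyond the trend, and 0 of the 7 Schlafen genes did, all of which passed the filter on low counts (adjusted p = 1 for each in edgeR). At an unadjusted p under 0.05 there were 753 genes and 0 members, and the smallest unadjusted p of a member was 0.248, for Slfn4 (edgeR goodness-of-fit test across all genes). A test with 3 libraries that does not pass its threshold does not show that the libraries were alike.

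Slfn2 varied least, with log2 CPM after TMM normalization of 9.52, 9.40 and 9.41 in replicates 1, 2 and 3 and an SD of 0.07, larger than that of 13.5% of the genes tested. Slfn8 had an SD of 0.125 and Slfn5 of 0.16, beside a median of 0.16 over all genes tested. The SD was 0.20 for Slfn9, 0.25 for Slfn3, 0.43 for Slfn1 and 0.60 for Slfn4, so that the members with the lowest counts had the widest spread. Replicate 1 was highest in 6 of the 7 genes, Slfn3 being highest in replicate 2. Replicate 3 was lowest in 5, and Slfn2 and Slfn4 were lowest in replicate 2. How many of all genes tested had the same order of libraries was not counted, so no trait of the family is read from it.

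**Figure D5:**
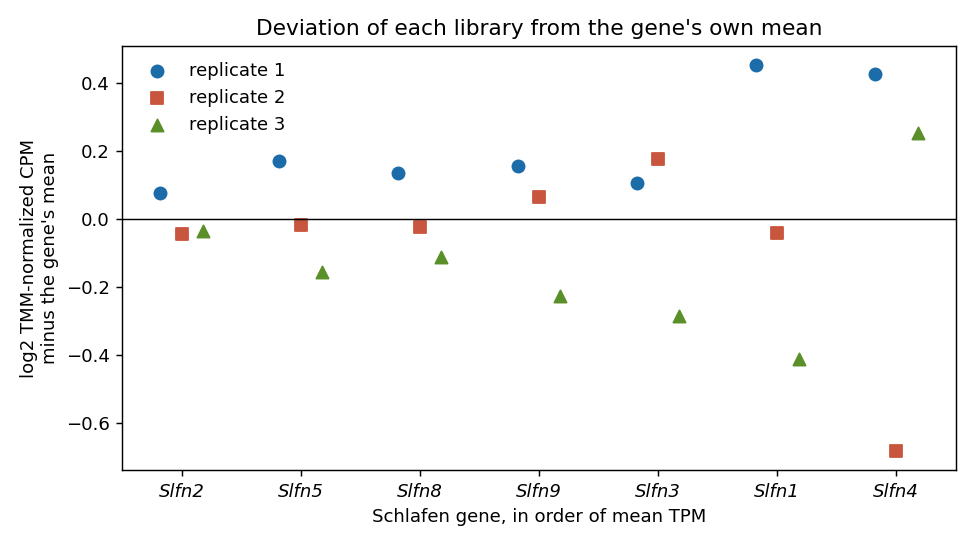
Log2 TMM-normalized CPM of each library minus the gene's mean over 3 libraries, for each Schlafen gene in the order of mean TPM. The points of Slfn2 lie closest to 0 (SD 0.07) and those of Slfn4 farthest (SD 0.60), with replicate 1 above 0 in all 7 genes.

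For Slfn2, the 5 protein-coding genes with the smallest root-mean-square difference in centred log2 CPM were Gpr107, Adk, Yif1b, Arfgap3 and Tyrobp, at 0.00167 to 0.00323 log2 units over 3 libraries. Tyrobp, the signalling adaptor DAP12 of myeloid receptors, stood at 980 ± 196 TPM (SD, n = 3). Of 11175 coding genes compared, 3611 (32.3%) lay within 0.1 log2 units of Slfn2, so that the pattern of Slfn2 over 3 libraries was a common one.

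Genes of the pathways in which Schlafen genes are placed were also read, by lists. Of 22 interferon-stimulated genes, all 22 reached 1 TPM, with a median of 26.7 TPM and a range of 3.83 to 127.5 TPM, beside 43.1% of all protein-coding genes. Bst2, which tethers budding virus particles to the cell, had 179.8, 105.4 and 97.2 TPM and was the highest of them. Ifit2, which binds viral RNA, averaged 98.0 ± 40.4 TPM, and Rsad2, the antiviral enzyme viperin, averaged 84.3 ± 23.1 TPM (SD, n = 3 each). The mean TPM of Slfn2 was above those of all 22 genes, and that of Slfn5 was between those of Ifit2 and Rsad2. The place of Slfn5 was not firm. In replicate 3 it had 60.6 TPM, above Rsad2 at 57.7 and Ifit2 at 51.9 TPM. In CPM it averaged 690, against 528 for Ifit2 and 457 for Rsad2.

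All 9 genes of interferon beta, its receptor and its signalling reached 1 TPM, with a median of 21.3 TPM, beside 43.1% of all protein-coding genes. The receptor chain Ifnar2 averaged 59.6 ± 11.7 TPM and the kinase Jak1 40.5 ± 6.45 TPM (SD, n = 3 each). Of 7 genes that cleave transfer RNA, process it or protect it from cleavage, 6 reached 1 TPM, beside the same 43.1% of protein-coding genes. The median of the 7 was 8.11 TPM, and Ang2 was listed at 0. Rnh1, the inhibitor of angiogenin-type ribonucleases, averaged 95.1 ± 22.2 TPM (SD, n = 3). Nsun2, a methyltransferase whose marks protect transfer RNA from cleavage, had 10.9, 23.8 and 9.26 TPM, with replicate 2 above the other 2 libraries. In CPM, without length normalization, it had 41.6, 49.4 and 45.3.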

How the data were processed

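Total RNA-seq libraries of the cytosolic fraction were analysed in 3 samples of 1 group. Per the deposited notes of each library, values refer to mm10 and GENCODE M21. The authors deposited a gene table and a first transcript table with expected counts, TPM and a posterior SD of the count (a score), and a second transcript table with estimated counts and TPM. Which tools made these values, and whether strand was used, is not given in the sources used here.

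Genes were matched between tables by gene ID, and all 55536 matched. Members' levels are the gene table's TPM. Neighbouring members were compared by an exact sign-flip permutation test of log2(TPM + 1). Expected counts were rounded and tested for spread in edgeR 4.0.16 (R 4.3.3: filterByExpr, TMM, trended dispersion, goodness of fit, adjusted p under 0.05), which was tested on simulated data. The simulated counts were drawn with the fitted dispersion, so they cannot check that dispersion. Other values were computed in Python 3.11.15. Shared words of 31 bases were counted over GENCODE transcripts, and coding lengths exclude the stop codon.

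The text names all members, their relatives, genes within the cluster, the 3 genes of highest mean TPM of each pathway list (some of which are not reported here) and the 5 genes most like Slfn2. Markers were chosen by cell type. The members and lists were chosen with earlier results of these data known. The ETS motif and the shared run were chosen after the promoter sequences had been seen. Alternatives changed the pseudocount, length normalization, quantification, TPM denominator, count filter, normalization and libraries.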

Additional observations from a re-analysis of the deposited data

How the results depend on the processing

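The mean differences between neighbouring members had the same sign in all 6 pairs under 7 alternatives, but 2 pairs came near 0 and their order was not resolved there. For alternatives that use the gene table's TPM the sign was largely set in advance, because the order came from those values. Slfn2 minus Slfn5 ranged between 0.02 (CPM in place of TPM, where the libraries differed in sign) and 1.87, and Slfn9 minus Slfn3, unresolved in the TPM reported, between 0.02 and 1.61 (CPM). Slfn1 minus Slfn4 ranged between 0.32 (second transcript table) and 2.01 (pseudocount 0.1). The number of genes varying beyond the dispersion trend was 209, against 210 with RLE normalization, 211 without the count filter and 115 among protein-coding genes alone. Leaving out each replicate in turn gave between 59 and 129 genes, with 2 libraries in each fit. No member passed an adjusted p under 0.05 in edgeR under any of these alternatives, the smallest adjusted p being 0.984. No paired analysis was possible because all libraries belong to 1 group, which leaves no groups to pair (the differences between members are taken within libraries). Depth limits Slfn1 and Slfn4 most, at 23 to 147 counts per library.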

Other observations

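Of the 14 other genes annotated within the cluster, 8 had 0 counts in all libraries (Gm48462, Gm48467, Gm48468, Gm48469, Gm48477, Gm48490 and the microRNA genes Mir7679 and Gm27598). Of these, 6 (all but Gm48462 and Gm48467) have no effective length in the gene table, so that their 0 sets no limit on a level. Gm11424, 1190001M18Rik and Gm48434 had at most 3 counts in a library. In the second transcript table, Mir7679 had 0.941, 0 and 1.12 TPM in replicates 1, 2 and 3, and Gm27598 had 1.25, 0 and 0.841 TPM. Their means were 0.687 ± 0.602 and 0.698 ± 0.639 TPM (SD, n = 3 each), so the spread was nearly as large as the mean.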
